A study of Mus musculus with 6 samples.

Results

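The genes described here are 8 genes of the mouse that encode enzymes and a transporter of peroxisomal beta-oxidation, Acox3, Hsd17b4, Acaa1a, Acaa1b, Scp2, Abcd3, Amacr and Crot. They were chosen by name, with earlier results of these data known. All 8 were found by gene symbol among the 25664 rows of a count table. The table holds RNA sequencing of alveolar macrophages, phagocytes that live in the air spaces of the lung and clear surfactant, which were sorted from lavage fluid with 50000 cells taken for each sample. The mice of the Pex5-deficient group (3 libraries) had the genotype Vav1cre/+ Pex5fl/fl, and those of the control group (3 libraries) were Pex5fl/fl. Both groups therefore carry the floxed Pex5 allele, and no library here carries the recombinase without it. The Vav1 driver acts in blood stem cells and in what descends from them, so the deletion is not limited to macrophages. The sources used here give neither age nor sex of the mice, and nothing says that the samples came from separate mice, so that p-values measure the spread between these samples, which may be technical.

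Peroxisomes shorten fatty acids that mitochondria handle poorly, chiefly very long-chain and methyl-branched ones and the side chains of bile acid precursors. Acyl-CoA enters through ABC transporters of the membrane, is oxidised by an acyl-CoA oxidase that makes hydrogen peroxide, passes through a bifunctional enzyme that hydrates and dehydrogenates it, and is cut by a thiolase; the shortened chain leaves as a carnitine ester. PEX5 is the receptor that brings most of these enzymes into the organelle after they are made in the cytosol, either directly or, for the Acaa1 thiolases, together with PEX7. Transcript counts measure neither that import nor enzyme activity.

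In Pex5-deficient macrophages the transcripts of Hsd17b4, the bifunctional enzyme, fell to 209.9 ± 7.07 CPM, against 379 ± 35.9 CPM in control macrophages (mean ± SD, n = 3 per group). CPM are counts scaled to a common library size, after trimmed mean of M values (TMM) scaling unless said otherwise. Those of the thiolase Acaa1b fell to 290.4 ± 45.3 CPM, against 591.5 ± 114.9 CPM in control. By the quasi-likelihood F test of edgeR, with p-values adjusted by the Benjamini-Hochberg method over the whole table, these 2 of the 8 genes were called lower and 0 higher, at an adjusted p under 0.05. Over all 11011 genes tested 1.51% were called lower, 1.74% higher and 3.25% in either direction. The other 6 genes were not called, and their log2 fold changes, Pex5-deficient over control, lay between -0.54 and 0.51. Of the 8, 7 had a log2 fold change below 0, as had 50.1% of all genes. For 4 of the 8 genes (Hsd17b4, Acaa1a, Acaa1b and Scp2) every Pex5-deficient library was below every control library, where 13.1% of all genes were so, and for Amacr every Pex5-deficient library was above, where 13.0% were so (26.1% in either direction). The median log2 fold change of the 8 was -0.39, against -0.0008 over all genes tested. Because the 8 were chosen with earlier results of these data known, these shares are a description and no test of the group. All 8 passed the filter on low counts, the lowest with 24 reads in its lowest library.

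The pair of thiolase genes needs its sequences shown, because they are near-identical copies and reads of 100 bases were counted over each. Acaa1a lies on chromosome 9 from 119339676 to 119350299 (GRCm38, plus strand) and Acaa1b from 119148023 to 119157093 (minus strand), 182583 bases apart. Their coding sequences, 1272 bases in each, were 96.5% identical, with 3 identical stretches of 100 bases or more and a longest one of 327 bases. The first 100 coding bases of each, about what 1 read covers, differ at 4 positions, which are in capitals (GENCODE mouse release 21 transcripts on GRCm38, 5′ to 3′). This stretch encodes the start of the protein, where the peroxisomal targeting presequence of thiolase lies.
Acaa1a: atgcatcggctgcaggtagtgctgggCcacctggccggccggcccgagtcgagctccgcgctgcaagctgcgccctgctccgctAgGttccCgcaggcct
Acaa1b: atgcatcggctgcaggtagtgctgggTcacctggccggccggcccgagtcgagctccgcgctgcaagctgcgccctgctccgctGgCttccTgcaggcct
Of the words of 100 bases in the longest coding transcript, 21.6% of those of Acaa1a and 30.5% of those of Acaa1b also occur in another gene, with the other copy as the closest partner. The values of each copy are therefore uncertain, and their sum is given beside them.

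The promoters of the same pair are shown as a description, because both genes had lower values in the Pex5-deficient libraries. Only Acaa1b was called by edgeR, but a difference between the copies was not established (exact permutation test of their ratio, p = 0.2, given below). RefSeq windows (GRCm38.p6) from 250 bases before to 50 bases after the start site were found by symbol for 6 of the 8 genes. Hsd17b4 and Amacr had no window and were not searched. The window of Acaa1a is chr9:119341044-119341343 on the plus strand and that of Acaa1b chr9:119157044-119157343 on the minus strand, both written 5′ to 3′ with the letters CCAAT in capitals on either strand (ATTGG is the same box read from the other strand). The window of Acaa1a is set on the start site at 119341294, where the longest coding transcript begins, 1618 bases inside the outermost annotated start of the gene. That of Scp2, not shown, is set on the start site at 108118547, 26451 bases inside the outermost annotated start of Scp2. The longest coding transcript of Scp2 begins close to it, at 108118532.
Acaa1a promoter: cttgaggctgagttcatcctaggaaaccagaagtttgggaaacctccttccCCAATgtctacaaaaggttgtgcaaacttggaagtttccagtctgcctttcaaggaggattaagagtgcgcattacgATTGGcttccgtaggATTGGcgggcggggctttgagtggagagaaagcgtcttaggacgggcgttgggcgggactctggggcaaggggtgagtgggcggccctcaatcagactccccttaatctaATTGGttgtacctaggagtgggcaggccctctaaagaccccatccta
Acaa1b promoter: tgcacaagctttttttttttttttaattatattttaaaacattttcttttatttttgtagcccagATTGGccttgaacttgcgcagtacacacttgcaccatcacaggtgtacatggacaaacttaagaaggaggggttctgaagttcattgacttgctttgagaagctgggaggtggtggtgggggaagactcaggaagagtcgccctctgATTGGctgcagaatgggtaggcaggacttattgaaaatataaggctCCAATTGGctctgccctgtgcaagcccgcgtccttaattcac
Each window held 4 matches to CCAAT, which 37.4% of 32851 windows of the same length hold at least once, and in that of Acaa1b the last 2 matches overlap. The letters GGGCGG, the GC box, matched 3 times in Acaa1a and 0 times in Acaa1b, and occur in 35.7% of all windows. The window of Acaa1a was 53.3% G or C and that of Acaa1b 43.7%. A direct repeat bound by PPAR with RXR, searched on both strands as 2 copies of AGGNCA with 1 base between them, was found in none of the 7 windows of the 6 genes and in 0.381% of all windows. A match is a description of letters only, and the lack of one says nothing about the factor.

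Total counts were 13325609 to 19413838 in Pex5-deficient and 14226108 to 18987200 in control libraries. Pex5-deficient replicate 2 had a TMM scaling factor of 1.34, against 0.899 to 1.03 in the others, and without it 2 of the 8 genes were again called lower (4.75% of all genes tested called, either direction). All 18 markers of alveolar macrophages had reads, together 54500 to 82800 CPM of the unscaled totals in Pex5-deficient and 65500 to 86600 in control libraries, most of it Chil3 (34800 to 57500 CPM in Pex5-deficient and 36100 to 48600 in control libraries). Within the list 5 of the 18 were called lower by edgeR and 0 higher, where 1.51% of all genes tested were called lower and 1.74% higher. Without overlap, 7 of the 18 lay below control and 1 above, where 13.1% and 13.0% of all genes did. Siglecf, a lectin that marks these cells, fell to 218.9 ± 39.0 CPM in Pex5-deficient libraries, against 650.9 ± 28.6 CPM in control libraries (log2 fold change -1.57 ± 0.16, adjusted p = 0.00334). Fabp1 (-2.51), Ear1 (-2.52), Krt79 (-1.44) and Cidec (-0.83) were the others called. Bhlhe41, a transcription factor, was the 1 above control without overlap (0.83 ± 0.21, adjusted p = 0.0753, not called). Ear2, among the 7 below without overlap, had -1.58 ± 0.40 (adjusted p = 0.0753) and was not called either. Of 4 tested neutrophil markers 2 were called higher by edgeR, where 1.74% of all genes tested were. These were S100a8 (log2 fold change 2.07, adjusted p = 0.0203) and Cxcr2 (2.17, adjusted p = 0.00808). Mmp8 (0.90, adjusted p = 0.156) was not called, nor was Csf3r, which went the other way (-0.52, adjusted p = 0.279). Summed neutrophil markers were 133 to 180 CPM of the unscaled totals in Pex5-deficient and 78.1 to 102 in control libraries. Of the 12, 6 had 0 reads in all libraries (Ly6g, S100a9, Ngp, Camp, Retnlg and Mmp9). S100a8 had 83 to 722 reads per library while S100a9 had 0. Whether counts of 0 throughout come from the cells or from the counting was not tested. Summed markers of lung epithelium were 67 to 73.8 CPM of the unscaled totals in Pex5-deficient and 41 to 55 in control libraries. Most of it was Cdh1, while Sftpc stayed at or below 19 reads. After TMM scaling Cdh1 had 75.0, 53.0 and 72.6 CPM in Pex5-deficient replicates 1 to 3. Control replicates 1 to 3 had 45.7, 57.4 and 37.3 CPM, so the groups overlapped. Cdh1 was not called by edgeR (log2 fold change 0.51, adjusted p = 0.179). The part of these differences in the results was not tested. In sorted bulk samples, fewer cells of a type and less RNA per cell cannot be told apart. Pex5 itself averaged 32.4 ± 3.45 CPM in Pex5-deficient and 31.6 ± 1.71 CPM in control libraries, and a count over the whole gene does not check a deletion of some of its exons.

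**Figure D1:**
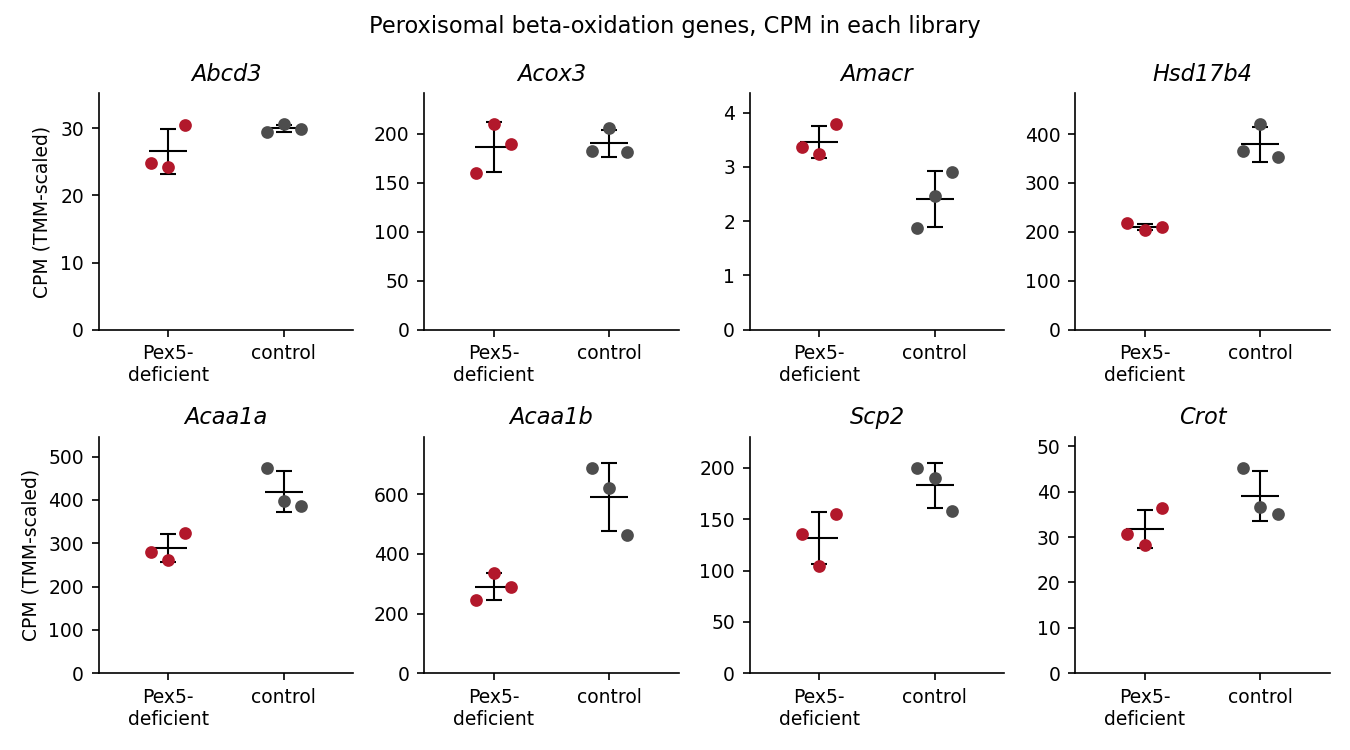
CPM on TMM-scaled library sizes (y axes, each from 0) of the 8 genes in the 3 Pex5-deficient libraries (red, left) and the 3 control libraries (grey, right), in replicate order from left to right; the horizontal bar is the mean and the whiskers are 1 SD. Hsd17b4, Acaa1a, Acaa1b and Scp2 do not overlap between the groups, while Acox3 does.

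Entry into the peroxisome was represented by Abcd3, which encodes the ABC transporter of the peroxisomal membrane known for branched-chain and bile acid intermediates. Abcd3 (chromosome 3, 121758774 to 121815302, minus strand) had 24.9, 24.3 and 30.5 CPM in Pex5-deficient replicates 1 to 3, against 29.5, 30.6 and 29.8 CPM in control replicates 1 to 3. Pex5-deficient replicate 3 lay among the control libraries and the other two below them, so the groups overlapped. Abcd3 had a log2 fold change of -0.18 ± 0.12 (SE), with a 95% interval from -0.44 to 0.09 and an adjusted p of 0.451 by edgeR. The control libraries were close together, with an SD of 0.555 CPM, and those of the Pex5-deficient group had an SD of 3.41 CPM. Abcd2, a transporter of the same family that carries very long acyl chains, had a log2 fold change of 0.17 ± 0.14 (adjusted p = 0.568).

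The oxidation step was represented by Acox3, the oxidase of branched-chain acyl-CoA, and the stereoisomer step before it by Amacr, the racemase that makes branched acyl-CoA fit for the oxidase. Acox3 (chromosome 5, 35583040 to 35615352, plus strand) had 159.6, 209.5 and 189.7 CPM in Pex5-deficient replicates 1 to 3, against 182.7, 206.1 and 181.1 CPM in control replicates 1 to 3. Both the lowest and the highest library belonged to the Pex5-deficient group. The log2 fold change was -0.03 ± 0.13, with an interval from -0.33 to 0.27 and an adjusted p of 0.939, so a change of the size seen for Hsd17b4 lies outside the interval. Acox3 shares 700 exon bases with 4931431C16Rik on the opposite strand, a gene with 0 rows in the count table. The part of those bases in the value of Acox3 was not tested. Acox2, the oxidase of bile acid precursors, had at most 0.14 CPM of the unscaled totals and was not tested.

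Amacr (chromosome 15, 10981756 to 10996626, plus strand) was the least abundant of the 8, with 43, 77 and 67 reads in Pex5-deficient replicates 1 to 3, against 24, 43 and 43 reads in control replicates 1 to 3. After scaling these were 3.36, 3.24 and 3.79 CPM in Pex5-deficient and 1.88, 2.46 and 2.90 CPM in control libraries. Each Pex5-deficient library was above each control library, with Pex5-deficient replicate 2 and control replicate 3 the closest. Its log2 fold change of 0.51 ± 0.24 had an interval from -0.04 to 1.06 and was not called (adjusted p = 0.296). Amacr had the widest interval of the 8.

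Hsd17b4 (chromosome 18, 50128201 to 50196269, plus strand) encodes the enzyme that carries out both middle steps for straight, branched and bile acid chains. It had 217.4, 203.3 and 209.2 CPM in Pex5-deficient replicates 1 to 3, against 364.9, 419.8 and 352.2 CPM in control replicates 1 to 3. The Pex5-deficient libraries lay close together, and the highest of them was well below the lowest control library. The log2 fold change was -0.85 ± 0.12 (95% interval from -1.13 to -0.57, adjusted p = 0.0117 by edgeR), a level of 0.554 times that of control, and by p the gene ranked 78 among all genes tested. None of its words of 100 bases occurs in another gene, and no other annotated exon overlaps it. The call ended without control replicate 1 (adjusted p = 0.0566) and was kept when any other library was left out. Ehhadh, the other bifunctional enzyme, which serves straight chains and dicarboxylic acids, averaged 17.5 ± 2.19 CPM in Pex5-deficient and 18.6 ± 2.14 CPM in control libraries (log2 fold change -0.09 ± 0.14, adjusted p = 0.792).

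Among the thiolases, which release acetyl-CoA or propionyl-CoA, Acaa1b had 246.0, 336.6 and 288.8 CPM in Pex5-deficient replicates 1 to 3, against 688.8, 620.9 and 464.7 CPM in control replicates 1 to 3. All Pex5-deficient libraries were below all control libraries, among which replicate 3 was the lowest. The log2 fold change was -1.03 ± 0.19 (interval from -1.46 to -0.60, adjusted p = 0.0266), a level of 0.491 times that of control. It was not called without Pex5-deficient replicate 1 (adjusted p = 0.111) or 3 (0.065), nor without control replicate 1 (0.118) or 2 (0.0927), while the fold change then stayed between -1.02 and -0.90.

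Acaa1a had 280.4, 260.9 and 324.0 CPM in Pex5-deficient replicates 1 to 3, against 474.0, 398.1 and 384.8 CPM in control replicates 1 to 3. The groups again did not overlap. Its log2 fold change of -0.54 ± 0.14 (interval from -0.87 to -0.21) was not called by edgeR (adjusted p = 0.0905), though DESeq2 called it lower (adjusted p = 0.00813, where 6.86% of all genes were called). Acaa1a shares 290 exon bases with Myd88 on the opposite strand, and Myd88 had a log2 fold change of -0.11 ± 0.11 (adjusted p = 0.646).

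With the counts of both copies added, which does not depend on how reads were split between them, the pair had 526.4, 597.4 and 612.7 CPM in Pex5-deficient replicates 1 to 3, against 1162.9, 1019.0 and 849.5 CPM in control replicates 1 to 3. The sum was called lower, with a log2 fold change of -0.80 ± 0.17 (interval from -1.19 to -0.41, adjusted p = 0.0436). Leaving out any 1 library except Pex5-deficient replicate 2 ended that call, with an adjusted p of up to 0.183 and fold changes between -0.89 and -0.69 over all 6 omissions. Whether Acaa1b fell more than Acaa1a was asked of the ratio of their counts, which no scaling touches. Acaa1b made up 46.7%, 56.3% and 47.1% of the pair's reads in Pex5-deficient replicates 1 to 3, against 59.2%, 60.9% and 54.7% in control replicates 1 to 3. Pex5-deficient replicate 2 lay within the control range, so the groups overlapped. The log2 ratio averaged 0.004 ± 0.31 in Pex5-deficient and 0.48 ± 0.19 in control libraries, a difference of -0.48 that was within what relabelling the libraries gives (two-sided exact permutation test, p = 0.2, where 3 against 3 libraries cannot go below 0.1).

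**Figure D2:**
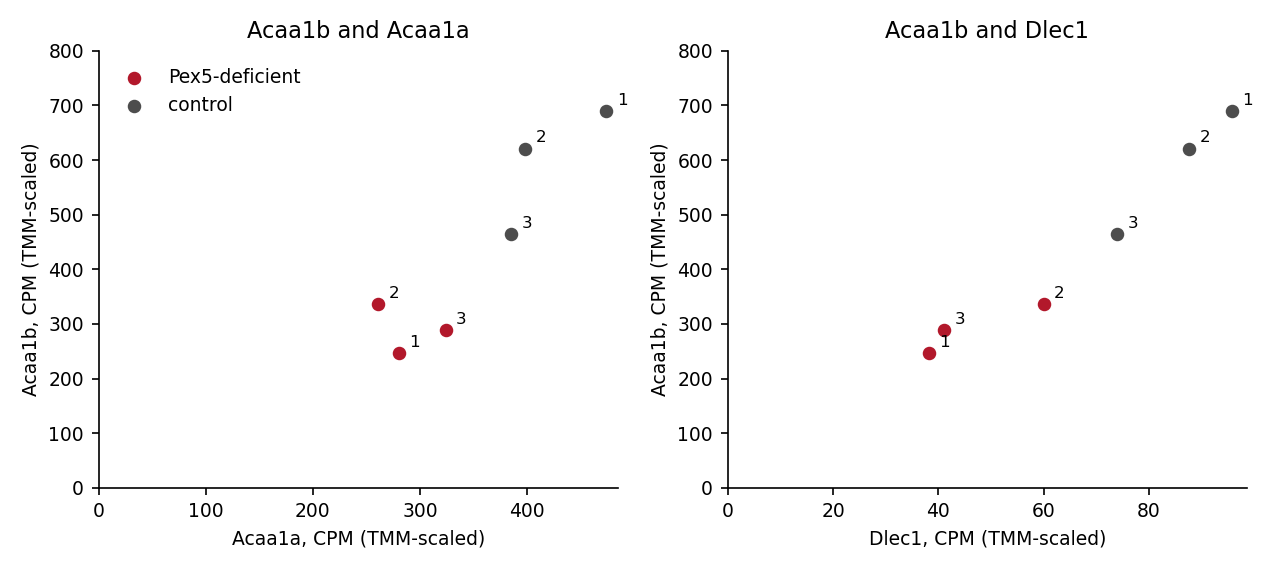
Acaa1b (y axis) against Acaa1a (left, x axis) and against Dlec1 (right, x axis), all in CPM on TMM-scaled library sizes from 0, 1 point per library with its replicate number, Pex5-deficient in red and control in grey. The Pex5-deficient libraries lie at or below 336.6 CPM of Acaa1b and the control libraries at or above 464.7 CPM, and Dlec1 runs from 38.2 to 95.7 CPM.

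Dlec1, on the opposite strand, shares 224 exon bases with Acaa1b. It had 38.2, 60.0 and 41.0 CPM in Pex5-deficient replicates 1 to 3, against 95.7, 87.6 and 73.9 CPM in control replicates 1 to 3, and its log2 fold change was -0.88 ± 0.18 (adjusted p = 0.0379). The library order of Dlec1 was that of Acaa1b. The sources used here do not give the strand setting of the counting, so reads of the shared bases cannot be assigned to either gene, and their part in either value was not tested.

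Scp2 (chromosome 4, 108043839 to 108144998, minus strand) encodes, from separate start sites, a thiolase for branched chains and bile acid precursors and a small lipid carrier, and counts over the gene join both. It had 135.4, 104.5 and 154.9 CPM in Pex5-deficient replicates 1 to 3, against 200.1, 190.2 and 158.4 CPM in control replicates 1 to 3. The groups did not overlap, but Pex5-deficient replicate 3 was close to control replicate 3. Its log2 fold change was -0.48 ± 0.16 (interval from -0.85 to -0.10), not called (adjusted p = 0.161). Of its words of 100 bases 32.2% occur in another gene, the pseudogene Scp2-ps2 being the closest partner, so the value of Scp2 is uncertain.

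Exit was represented by Crot, the carnitine octanoyltransferase that turns shortened acyl-CoA into esters for transport to mitochondria. Crot (chromosome 5, 8966033 to 8997324, minus strand) had 30.7, 28.2 and 36.5 CPM in Pex5-deficient replicates 1 to 3, against 45.3, 36.6 and 35.2 CPM in control replicates 1 to 3. Pex5-deficient replicate 3 lay above control replicate 3, so the groups overlapped. The log2 fold change was -0.30 ± 0.14 (interval from -0.61 to 0.02, adjusted p = 0.291). With Gm37153 and Gm27941 together, Crot shares 39 exon bases on its own strand and 166 on the opposite strand. Their part in its value was not tested.

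The level of the 8 genes was compared with one another only per length, as TMM-scaled CPM per kb of annotated exons. In Pex5-deficient libraries the order from high to low was Acaa1b (148 ± 23.1), Acaa1a (65.3 ± 7.32), Hsd17b4 (61.7 ± 2.08), Scp2 (37.8 ± 7.31), Acox3 (16.2 ± 2.18), Crot (5.83 ± 0.774), Abcd3 (4.03 ± 0.517) and Amacr (1.33 ± 0.111). In control libraries the means were 301 ± 58.6 for Acaa1b, 111 ± 10.6 for Hsd17b4, 94.9 ± 10.9 for Acaa1a, 52.6 ± 6.26 for Scp2, 16.5 ± 1.21 for Acox3, 7.16 ± 1.0 for Crot, 4.55 ± 0.0842 for Abcd3 and 0.926 ± 0.197 for Amacr. Hsd17b4 and Acaa1a overlapped in both groups, so their order is not set, and no other neighbours in the order overlapped. The exons of Acaa1a include retained introns. Per kb of the longest coding transcript, a length chosen after the values were seen, Acaa1a had 164 ± 18.3 CPM in Pex5-deficient and 238 ± 27.3 in control libraries, next to 172 ± 26.8 and 350 ± 68.0 for Acaa1b, and the 2 copies overlapped in the Pex5-deficient libraries. On that length Scp2 (39.6 to 58.7) and Acox3 (40.2 to 52.7) overlapped in the Pex5-deficient libraries too. The 4 genes with the highest mean level per kb of exons in either group were those whose Pex5-deficient libraries were all below the control libraries. Standard errors on the log2 scale were 0.12 to 0.19 for these 4, 0.12 to 0.14 for Acox3, Abcd3 and Crot, and 0.24 for Amacr. Whether level plays a part in the differences was not tested. Added up per kb of coding transcript, the 8 genes had 496 to 562 CPM in Pex5-deficient and 752 to 959 CPM in control libraries. The Acaa1 pair held most of it, Acaa1b alone 29.4% to 37.4% in Pex5-deficient and 36.6% to 42.5% in control libraries.

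**Figure D3:**
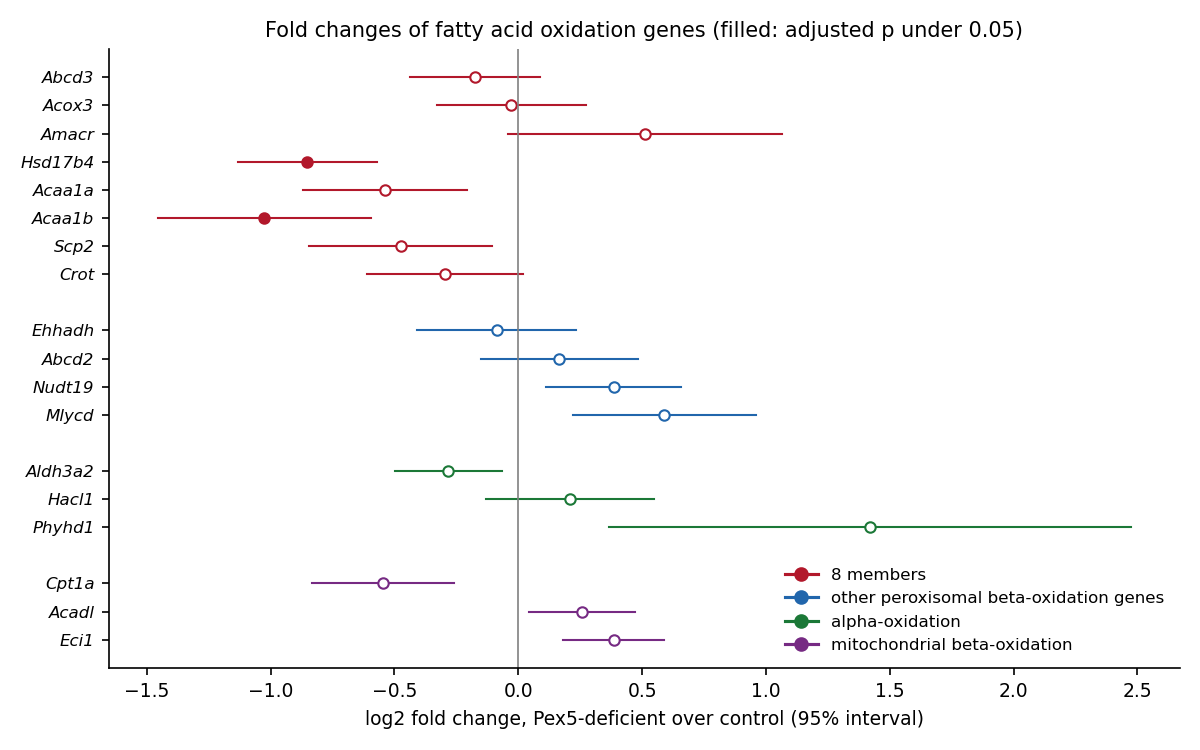
Log2 fold change, Pex5-deficient over control (x axis), with its 95% interval for the 8 genes (red, in order of the pathway) and for 10 genes of 3 further lists that the text names, sorted within each; filled points have an adjusted p under 0.05 by edgeR. Hsd17b4 and Acaa1b are the filled points, at -0.85 and -1.03.

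Other genes of fatty acid oxidation were counted from lists of their pathways. Of 21 other genes of peroxisomal beta-oxidation 16 were tested, 0 were called by edgeR in either direction, and their median log2 fold change was 0.08. At p under 0.05 before adjustment there were 3 higher and 2 lower, where 9.70% of all genes tested were higher at that p, 9.17% lower and 18.9% in either direction, and DESeq2 called 1 higher and 1 lower. Mlycd, which breaks down malonyl-CoA, averaged 29.4 ± 5.07 CPM in Pex5-deficient and 19.5 ± 3.08 CPM in control libraries (0.59 ± 0.16, adjusted p = 0.0942), and was the gene DESeq2 called higher. Nudt19, a hydrolase of CoA, averaged 74.5 ± 9.56 CPM in Pex5-deficient and 57.1 ± 3.96 CPM in control libraries (0.38 ± 0.12, adjusted p = 0.126). Alpha-oxidation removes the carboxyl carbon of phytanic acid. Of the 4 genes listed under it, 0 were called, with 1 higher and 1 lower before adjustment (p under 0.05). Among them is Phyhd1, whose part in that pathway was not tested here. It had 1.42 ± 0.46 (adjusted p = 0.144) at 2.19 ± 0.344 CPM in Pex5-deficient and 0.820 ± 0.638 CPM in control libraries. Without control replicate 3 it was called higher at 2.26 (adjusted p = 0.0477), and when any other library was left out it had 1.12 to 1.53 with no call. Aldh3a2, a fatty aldehyde dehydrogenase, had -0.28 ± 0.09 (adjusted p = 0.154), and Hacl1, the lyase of the pathway, had 0.21 ± 0.15 (adjusted p = 0.495).

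Of 21 tested genes of mitochondrial beta-oxidation, the route that takes the common long chains, 0 were called by edgeR, and the median was -0.09. Before adjustment (p under 0.05) 3 were higher and 5 lower, where 9.70% of all genes tested were higher and 9.17% lower. DESeq2 called Cpt1a lower and Eci1 higher. Cpt1a, the carnitine transferase that admits long chains to mitochondria, averaged 271 ± 13.4 CPM in Pex5-deficient and 395.9 ± 35.6 CPM in control libraries (-0.55 ± 0.13, adjusted p = 0.0567). Eci1, an isomerase for unsaturated chains, averaged 40.5 ± 1.46 CPM in Pex5-deficient and 31.0 ± 0.644 CPM in control libraries (0.39 ± 0.09, adjusted p = 0.0585). Acadl, the long-chain dehydrogenase, had 0.26 ± 0.09 (adjusted p = 0.188). The intervals of Cpt1a and Eci1 lie on opposite sides of 0. Of 11 tested genes that activate or bind long acyl chains 0 were called, with 1 higher and 1 lower before adjustment (p under 0.05). Acsf3, an acyl-CoA synthetase of mitochondria, had -0.43 ± 0.16 (adjusted p = 0.187), Acsl3, a long-chain synthetase, 0.58 ± 0.24 (adjusted p = 0.243) and Slc27a4, a fatty acid transport protein with synthetase activity, 0.23 ± 0.19 (adjusted p = 0.572).

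**Figure D4:**
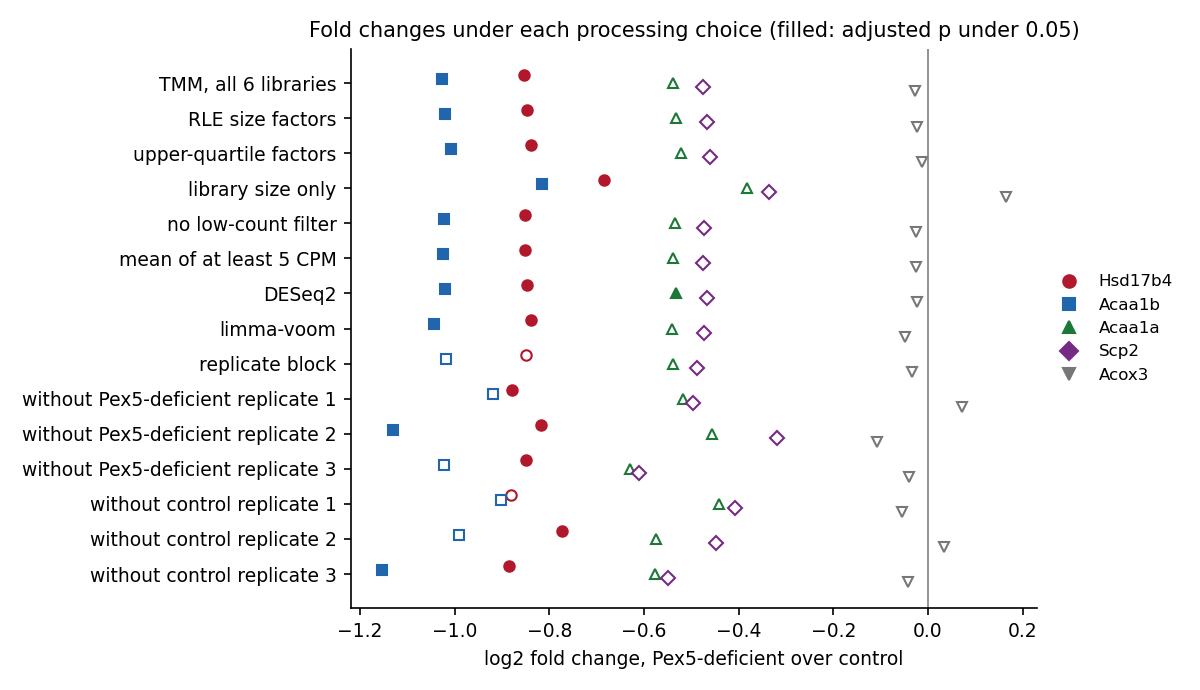
Log2 fold change, Pex5-deficient over control (x axis), of 5 of the 8 genes under each processing choice (rows); filled points have an adjusted p under 0.05. Hsd17b4 stays between -0.88 and -0.68 and Acaa1b between -1.15 and -0.82, and Acox3 changes sign.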

How the data were processed

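Gene counts were deposited by the authors as 1 table of raw counts with 1 column per library. Per the labels' protocols, libraries came from a stranded SMART-Seq kit and were read as single ends of 100 bases, and no molecular identifiers are named, so counting covers reads, not molecules. The submitters' processing notes name the builds GRCm38.p5 and mm10, and DESeq2 1.40.1, R 4.3.2, featureCounts and STAR, with the annotation, filters and strand setting not given in the sources used here.

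Sample titles gave the group and replicate of each library. Genes were kept by edgeR's filterByExpr (minimum count 10, minimum total 15), scaled by TMM and tested with the quasi-likelihood F test (edgeR 4.0.16, R 4.3.3), two-sided. P-values were adjusted over all 11011 genes tested, and standard errors were derived from F. The steps were tested on simulated data, where false calls ran above the nominal rate and most of the smaller changes were missed. Every pair of libraries differed by more than counting noise. Alternatives were other scalings, a gene length chosen after seeing the data, other filters, DESeq2 1.42.0, limma-voom (limma 3.58.1), the replicate number as a term, and each library left out. Annotation was GENCODE mouse release 21.

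The 8 genes and the lists were chosen with earlier results of these data known. From each list the genes called were named, otherwise the 3 with the smallest p, and for each called member the 3 genes nearest in pattern. Some genes of the lists are not reported here. Outside that rule, Abcd2, Ehhadh, Acox2, Ppara, Pparg, Hsd3b7, Myd88, Cpt2, Siglecf, Ear1, Ear2, Krt79, Bhlhe41, S100a8, Cxcr2, Mmp8 and Csf3r were named after their values were seen.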

Additional observations from a re-analysis of the deposited data

How the results depend on the processing

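Hsd17b4 and Acaa1b kept their sign under each of the 14 alternatives, as did Acaa1a, Scp2, Abcd3 and Crot, and Amacr under the 13 that tested it (a mean of at least 5 CPM leaves it out). With no TMM factors, the median of all log2 fold changes moved by 0.17 and the test called 289 higher and 132 lower, against 192 higher and 166 lower with TMM; Hsd17b4 (-0.68) and Acaa1b (-0.82) were still called. Acox3, never called, turned to 0.16 with library size alone and ranged from -0.11 to 0.07 (0.0713 without Pex5-deficient replicate 1) when 1 library was left out. DESeq2 called 755 genes, against 358 with edgeR, among them Acaa1a (-0.53), 2 other peroxisomal and 2 mitochondrial beta-oxidation genes. When 1 library was left out, 76 to 523 genes were called over all genes, 0 to 2 of the 8 genes, and 0 to 1 mitochondrial genes (Cpt2 lower without Pex5-deficient replicate 1, Cpt1a lower without replicate 2). Over the same omissions the log2 fold change was -0.88 to -0.77 for Hsd17b4, -1.15 to -0.90 for Acaa1b and -0.89 to -0.69 for the summed Acaa1 pair. The cause of these changes was not tested beyond the loss of samples. The labels do not say whether replicate numbers pair the samples. Deviations from the group means of same-numbered libraries correlated at -0.21, -0.06 and -0.41. With 3 libraries per group such values cannot decide whether the samples were paired. With the replicate number as a block, 83 genes and 0 of the 8 were called, with Hsd17b4 at -0.85 (adjusted p = 0.0817), Acaa1b at -1.02 (adjusted p = 0.105) and the summed pair at -0.79 (adjusted p = 0.195). The level per kb moved by more than 1 SD in 26 of 32 comparisons with another length. Counts limit Amacr most, with 24 to 77 reads per library.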

Other observations

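Genes of the nuclear receptors that are known to drive peroxisomal beta-oxidation were not called by edgeR. Ppara, the receptor best known for this in liver, had 0 reads in all 6 libraries. This allows up to 0.155 to 0.225 CPM of the unscaled totals per library (3 reads, counting error only). That bound holds only if the counting could record reads of Ppara, which was not tested. Pparg, the receptor on which alveolar macrophages depend, averaged 135.1 ± 4.63 CPM in Pex5-deficient and 128.9 ± 13.2 CPM in control libraries (adjusted p = 0.795). Of 11 tested receptors, partners and coactivators 0 were called by edgeR, with 0 higher and 2 lower before adjustment (p under 0.05; 9.17% of all genes tested were lower at that p) and 0 called by DESeq2. Rxra, the partner receptor, had 77.8, 100.6 and 73.1 CPM in Pex5-deficient replicates 1 to 3, against 106.2, 104.8 and 108.6 CPM in control replicates 1 to 3 (log2 fold change -0.34 ± 0.13, adjusted p = 0.205), and was called lower without Pex5-deficient replicate 2. Ncoa2, a coactivator, had -0.41 ± 0.16 (adjusted p = 0.218) and Ppard 0.55 ± 0.40 (adjusted p = 0.495).

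Of 13 tested PPAR targets outside the peroxisome 3 were called lower and 1 higher, where 1.51% of all genes tested were called lower and 1.74% higher. Fabp1 and Cidec are also among the alveolar macrophage markers. Txnip, which restrains glucose uptake, fell to 317.6, 496.7 and 701.4 CPM in Pex5-deficient replicates 1 to 3, against 1768.3, 1614.8 and 1218.4 CPM in control replicates 1 to 3 (-1.60 ± 0.29, adjusted p = 0.0261). The fatty acid carrier Fabp1 (-2.51 ± 0.28) and Cidec, a gene of lipid droplets (-0.83 ± 0.18), were the other lower ones, and the carrier Fabp4 the higher one (1.46 ± 0.32). Fabp1 was called when any 1 library was left out. Txnip was not called without Pex5-deficient replicate 1 or any 1 control library, Cidec was called only in the omission of Pex5-deficient replicate 2, and Fabp4 only in that and the omission of control replicate 2. Among 3 tested genes of bile acid and sterol side chains, Ch25h, which makes 25-hydroxycholesterol, rose to 226.3, 86.4 and 155.4 CPM in Pex5-deficient replicates 1 to 3, against 35.2, 55.8 and 20.3 CPM in control replicates 1 to 3 (2.07 ± 0.41, adjusted p = 0.0346). It was not called when Pex5-deficient replicate 1 or 3 or control replicate 1 or 3 was left out. Hsd3b7, an enzyme of bile acid synthesis, had -0.08 ± 0.15.

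Likeness of pattern was measured as the root mean square distance between centred log2 CPM over the 6 libraries, among genes of at least 5 CPM, as a description with no test. Nearest to Hsd17b4 were Ms4a8a, a membrane protein (0.0544), Csf2rb, the beta chain of the GM-CSF receptor (0.0993), and Lta4h, which makes leukotriene B4 (0.105). Nearest to Acaa1b were Dlec1 (0.126), the gene that overlaps it, Phactr2 (0.161) and Cyb561a3, a lysosomal membrane reductase (0.163).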
